A study of Mus musculus with 12 samples.

Results

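RNA levels of autosomal genes were compared between male and female mice at 2 weeks of age, in bone endothelial cells (BECs) purified from tibia by their expression of endomucin. The study's methods instead name tibiae and femurs, and capture of the cells on magnetic beads coated with an endomucin antibody. A gene was included when its Ensembl ID lay on chromosomes 1 to 19 and when it passed a filter on low counts, which kept 14052 of the 28853 autosomal genes in the count table, and these were 14052 of the 15081 genes tested on all chromosomes. The groups were 3 libraries from 2-week females and 3 from 2-week males of the strain given as c57/Bl6, with no transgene, allele or treatment named in the labels, and the cells of both groups were freshly isolated and sorted straight into lysis buffer. The labels do not state whether a library came from 1 animal or from pooled animals, so the p-values below measure only the spread between these libraries, which may be technical. The study examined how sex and sex hormones relate to the vessels of bone, and it holds 3 female and 3 male libraries at 65 weeks as well, which are used here only to set a sex difference beside that at 2 weeks.

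Both sexes carry the same dose of autosomal genes. A sex difference in their RNA can come, among other sources, from regulation or from a different mix of cells. BECs line the sinusoids and the capillaries of the growing metaphysis, which carry endomucin, a surface sialoglycoprotein of capillary and venous endothelium, and they sit among developing neutrophils, red cell precursors, B cells, macrophages and bone-forming cells. Marker genes of these neighbours were therefore followed beside the endothelial genes. In bulk RNA, fewer cells of a type and less RNA per cell cannot be told apart.

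Library totals ran from 35012947 to 44569600 counts, and autosomal genes held between 90.0% and 90.9% of the counts. Xist, the RNA that silences an X chromosome, had between 3328 and 7069 counts in the female libraries and 0 in the male libraries, and 4 Y-linked genes had between 5083 and 6438 counts in the male libraries against 0, 1 and 25 in the females. Female replicate 3, with 25, held 0.471% of the mean male level of these genes. Pecam1, Cdh5 and Emcn were read in every library, which does not measure the purity of the cells. The 26 genes of the endothelial list summed to between 3978 and 7009 CPM (counts scaled to library size, with edgeR's TMM factors). The 24 erythroid genes, globins among them, summed to between 34547 and 69070 CPM, so RNA of red cell precursors was present in every library. Female replicate 3 had the lowest sum of endothelial markers and the highest sums of erythroid and mitotic genes. Male replicate 3 stood with the females in macrophage, megakaryocyte and eosinophil genes.

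No autosomal gene passed the test at an adjusted p of 0.05. By edgeR's quasi-likelihood test with Benjamini-Hochberg adjustment over all 15081 genes, 0 of 14052 autosomal genes were called (0%), the smallest adjusted p among them was 0.213, and the 5 genes called (0.0332% of all genes) lay outside chromosomes 1 to 19. At an unadjusted p under 0.05, 1059 autosomal genes were higher in males (7.54%) and 1437 were lower (10.2%). The lowest male value exceeded the highest female value for 1492 genes (10.6%), and the reverse held for 1672 (11.9%). These shares of all autosomal genes are the ones to set beside the counts of list members below. limma-voom called 0 genes as well, whereas DESeq2 called 79 genes higher (0.603%) and 336 lower (2.57%) of the 13095 autosomal genes for which it gave an adjusted p. The 415 calls of DESeq2 are thus not shared by the other tests, and in what follows a gene is described by its values, its log2 fold change of male over female with the standard error (SE), and its unadjusted edgeR p.

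The differences were small. The median log2 fold change was 0.0098, with 7291 genes in the higher and 6761 in the lower direction, and 77 genes had a fold change of over 1 on the log2 scale in either direction. For 12686 genes (90.3%) the 95% interval lay within a doubling or halving. A large sex difference was thus outside the interval for most autosomal genes, while differences of a smaller size could not be resolved with 3 libraries a side.

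**Figure D1:**
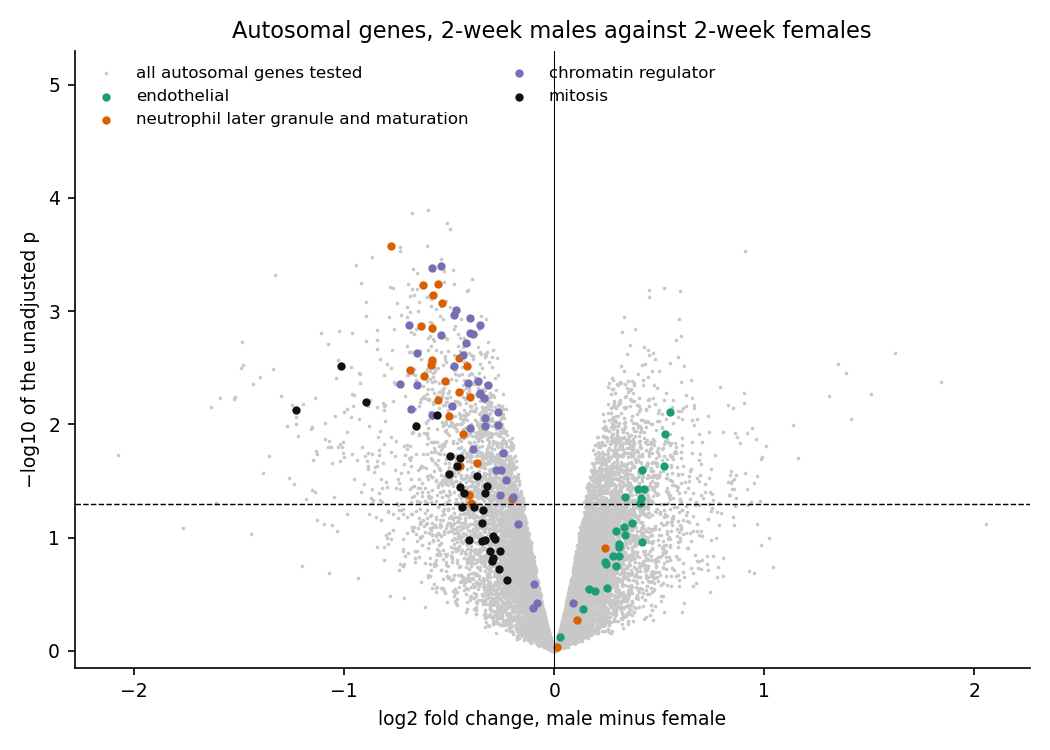
Each point is 1 of the 14052 autosomal genes tested, with the log2 fold change of 2-week males over females on the x axis and −log10 of the unadjusted edgeR p on the y axis; the dashed line marks a p of 0.05. The 26 endothelial genes lie to the right of 0, the 29 mitosis genes to the left, and 41 of 42 chromatin regulator and 24 of 27 later neutrophil genes lie to the left.

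Among genes averaging 3 or more on the log2 CPM scale, the lowest p values in the higher direction belonged to Cldn10, Cav2, Fabp5, Ecm2, Hspa13, Dnajb9, Sptssa, Jam2, Lrrn3 and Rnf2. Cldn10, which encodes a claudin of tight junctions, had 5.32, 7.31 and 5.28 CPM in the females and 12.2, 10.4 and 11.1 CPM in the males. The libraries of the sexes did not overlap, and Cldn10 was 1.88-fold higher in males (log2 fold change 0.91, SE 0.15). Its unadjusted p was 0.000295 and its adjusted p in edgeR was 0.213. Cav2, a caveolin of the membrane pits that are abundant in endothelium, had 22.3, 25.0 and 20.6 CPM in females against 34.0, 30.3 and 33.2 CPM in males, again without overlap (0.52, SE 0.095). Fabp5, a fatty acid binding protein, had 61.7, 67.9 and 58.9 CPM in females against 89.0, 79.9 and 88.5 CPM in males (0.45, SE 0.082). Ecm2, a matrix protein, differed by 0.45 (SE 0.084), and Jam2, a junctional adhesion molecule of endothelium, by 0.60 (SE 0.13). Dnajb9 and Hspa13, chaperones of the endoplasmic reticulum, had log2 fold changes of 0.39 (SE 0.080) and 0.33 (SE 0.066).

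The largest folds without overlap in the higher direction were those of Cldn10, Il34, Tspan12, Cbr2 and Acta2. Il34, a ligand of the macrophage growth factor receptor, had 9.75, 10.9 and 7.86 CPM in females and 17.7, 16.1 and 11.4 CPM in males. Tspan12, a tetraspanin that acts with Norrin signalling in vessels, had 21.2, 26.1 and 16.3 CPM in females and 36.3, 30.1 and 33.3 CPM in males. Acta2, the actin of smooth muscle, had 12.7, 12.4 and 10.6 CPM in females and 19.3, 14.6 and 21.0 CPM in males. Their log2 fold changes were 0.67 (SE 0.18), 0.65 (SE 0.16) and 0.62 (SE 0.15). None of them passed the adjusted test.

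In the lower direction the 10 smallest p values were those of Nin, Kif21b, Lrrk2, Rassf2, Lyst, Csf3r, Ikzf3, Cd300lf, Hip1r and Chd7. Nin, which anchors microtubules at the centrosome, had 63.7, 57.9 and 70.6 CPM in females and 41.7, 43.5 and 41.7 CPM in males (log2 fold change -0.60, SE 0.086). Kif21b, a kinesin found in neurons and in blood cells, had 46.5, 41.2 and 51.5 CPM in females and 28.2, 31.0 and 28.0 CPM in males (-0.68, SE 0.098). Csf3r, the receptor for the neutrophil growth factor G-CSF, had 99.9, 73.3 and 80.9 CPM in females and 49.5, 53.7 and 45.2 CPM in males (-0.78, SE 0.12). Each of these genes was without overlap between the sexes, and several are chiefly known from blood cells. Ikzf3 is a lymphocyte transcription factor (-0.73, SE 0.12), Cd300lf an inhibitory receptor of myeloid cells (-0.87, SE 0.14), and Lyst a protein of lysosomal granule traffic (-0.60, SE 0.097). The largest folds without overlap in the lower direction were those of Mki67, Cenpf, Zbp1, Nlrc5 and Reln. Their longest coding sequences were 9531, 8991, 1233, 5745 and 10383 bases. In the order above, the 10 genes with the smallest p had 6366, 4929, 7581, 978, 11361, 2613, 1521, 1011, 3219 and 8958 bases. The median over all autosomal genes tested was 1419. Of protein-coding genes in the longest decile (3540 bases and more), 33.7% were lower at an unadjusted p under 0.05, as described below. Reln, which encodes a secreted glycoprotein that is also made by lymphatic and liver endothelium, had 18.4, 16.3 and 20.2 CPM in females and 7.94, 12.2 and 8.85 CPM in males (-0.92, SE 0.17).

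Endothelial markers were measured higher in males as a group, though few of them separated the sexes. All 26 tested members of the endothelial list had a log2 fold change above 0, with a median of 0.32 against 0.0098 over all autosomal genes. At an unadjusted p under 0.05, 9 of 26 were higher (34.6%, beside 7.54% of all autosomal genes) and 0 were lower. The male libraries lay wholly above the female for 3 members, a share near the 10.6% of all autosomal genes. The summed level of the list was 5155, 6249 and 3978 CPM in the females and 7009, 5686 and 6620 CPM in the males, so female replicate 2 exceeded male replicate 2 and female replicate 3 was lowest. The count of 9 rested on single libraries, since it was 23 without female replicate 2 and 12 without male replicate 2, but 2 without female replicate 1 or male replicate 1 and 3 without female or male replicate 3. At 65 weeks the median of the list was 0.02.

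Emcn, which encodes the protein used for the isolation, had 148, 177 and 118 CPM in females and 207, 156 and 223 CPM in males. The groups overlapped (0.41, SE 0.17, unadjusted p 0.0499). Pecam1, the platelet endothelial adhesion molecule CD31, had 331, 403 and 258 CPM in females and 442, 360 and 446 CPM in males. Its log2 fold change of 0.33 had a 95% interval from -0.05 to 0.71. Plvap, which forms the diaphragms of fenestrae, Cdh5, the cadherin of endothelial junctions, and Eng, a co-receptor for TGF-beta, were the members with the most counts, and their log2 fold changes of 0.37, 0.31 and 0.31 had unadjusted p values of 0.0746, 0.12 and 0.115. Cldn5, the main claudin of endothelial tight junctions, had the smallest p of the list (0.0078) with a log2 fold change of 0.55, and Adgrl4, an adhesion receptor of growing vessels, had 0.53 with a p of 0.012.

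The lists of vessel subtypes lay in the same direction. All 10 sinusoidal markers were above 0 with a median of 0.24. At an unadjusted p under 0.05, 2 were higher (20%, beside 7.54% of all autosomal genes). Vcam1, an adhesion molecule of sinusoids and macrophages, had 1546, 1565 and 1340 CPM in females against 2645, 2258 and 1517 CPM in males, so that male replicate 3 lay with the females. All 13 arterial and angiogenic markers were above 0 with a median of 0.23. At an unadjusted p under 0.05, 4 were higher (30.8%, beside 7.54%). Of these, Gja4 and Gja5 encode connexins of arterial endothelium (0.61 and 0.45). Without female replicate 2 the counts of the 2 lists were 6 and 11, and without female replicate 3 or male replicate 1 both were 0. Without male replicate 3 they were 3 and 0, without male replicate 2 they were 1 and 6, and without female replicate 1 they were 1 and 0.

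**Figure D2:**
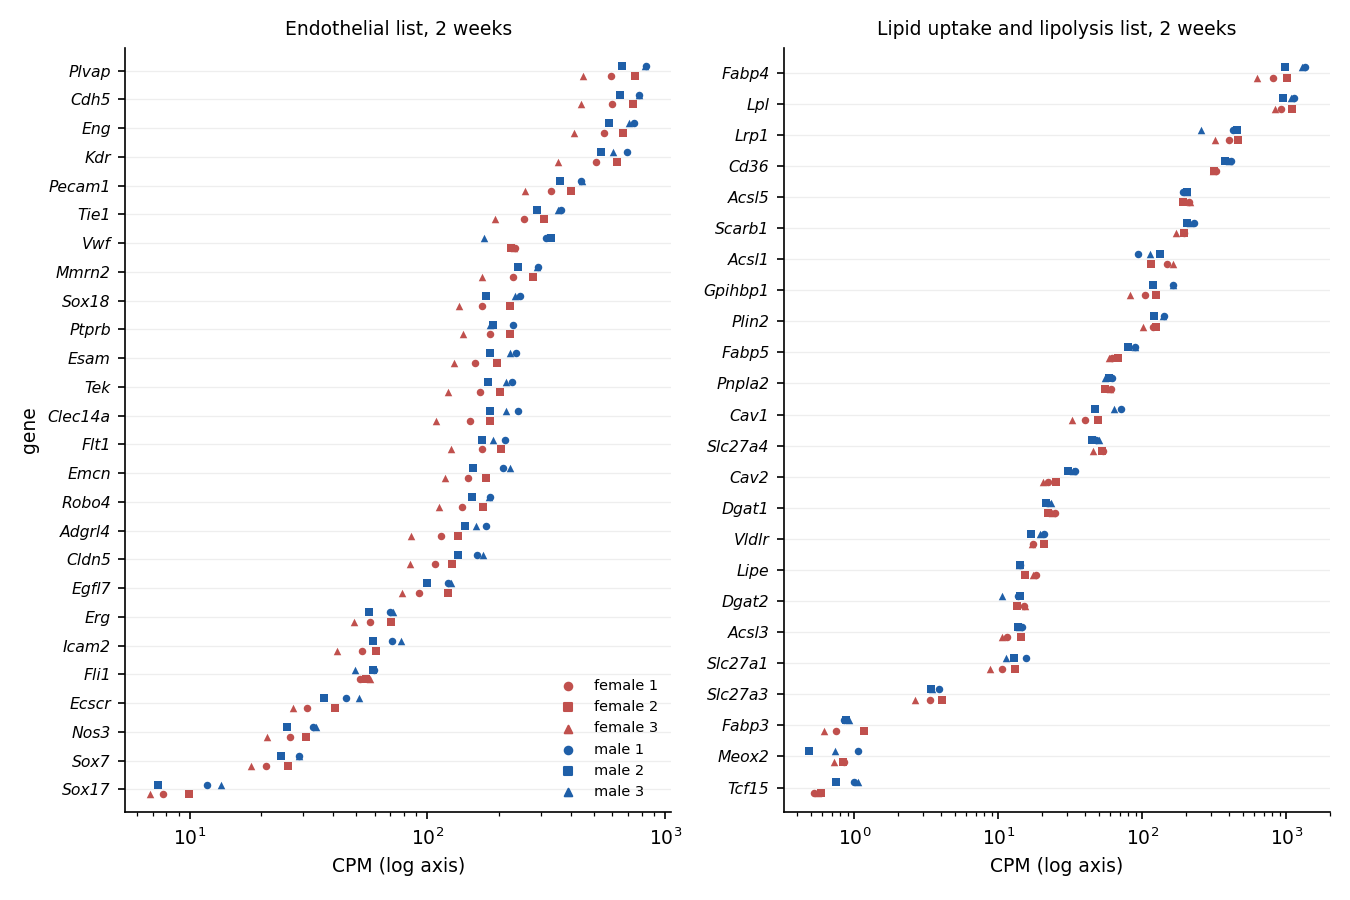
CPM on a log axis in each of the 6 libraries at 2 weeks, for the 26 endothelial genes (left) and the 24 genes of lipid uptake and lipolysis (right), with females in red, males in blue and a marker shape per replicate. Female replicate 3 is lowest for most endothelial genes, female replicate 2 and male replicate 2 overlap, and Cd36, Fabp5 and Cav2 separate the sexes.

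BECs take up fatty acids from blood through CD36, a membrane fatty acid translocase, and bind them inside the cell with FABP4 and FABP5, and CPT1A then admits them to the mitochondrion for oxidation. Of 24 genes of lipid uptake and lipolysis, 8 were higher in males at an unadjusted p under 0.05 (33.3%, beside 7.54% of all autosomal genes) and 1 was lower, with a median of 0.12. The count of 8 was 4 when male replicate 1 or male replicate 3 was omitted, 5 when female replicate 1 was omitted and 12 when female replicate 2 was omitted, and the median ran from 0.03 (female replicate 3 left out) to 0.27 (female replicate 2 left out). Cd36 had 325, 317 and 310 CPM in females and 415, 373 and 398 CPM in males. The sexes did not overlap (0.32, SE 0.075, unadjusted p 0.00308, edgeR adjusted p 0.213, DESeq2 adjusted p 0.00451). Fabp4 had 805, 1019 and 622 CPM in females and 1348, 972 and 1293 CPM in males, where female replicate 2 exceeded male replicate 2 (0.56, SE 0.19). Tcf15, which with Meox2 drives fatty acid uptake genes in capillaries, was read at about 1 CPM or less in every library (0.74). Lipe, the hormone-sensitive lipase, was the member lower in males (-0.27). Cd36 is also known from macrophages and platelets and Fabp4 from fat cells, and which cells gave these counts was not tested.

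Fatty acid oxidation genes lay slightly above 0. Of 24 members, 23 were in the higher direction with a median of 0.13. At an unadjusted p under 0.05, 6 were higher (25%, beside 7.54% of all autosomal genes) and 0 were lower. The male libraries lay wholly above the female for 10 members, beside 10.6% of all autosomal genes. The summed level was between 1610 and 1690 CPM in the females and between 1772 and 1855 CPM in the males, so the sums did not overlap. The count of 6 was 10 without female replicate 2, 4 without male replicate 2, 3 without male replicate 3 and 0 without any 1 of the other 3 libraries. Acadm, the medium-chain acyl-CoA dehydrogenase, had the smallest p of the list (0.027) with a log2 fold change of 0.22. Cpt1a, the entry step, had 130, 117 and 116 CPM in females and 127, 124 and 115 CPM in males. Its log2 fold change was 0.01 with a 95% interval from -0.17 to 0.20.

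Other metabolic lists stayed near the median of all genes. The median was 0.09 for 13 genes of fatty acid synthesis, 0.03 for 20 of sterol synthesis, 0.06 for 21 of glycolysis, 0.04 for 74 of oxidative phosphorylation and 0.04 for 77 of cytosolic ribosomal proteins. Between 0 and 4 members of each were higher and between 0 and 3 lower at an unadjusted p under 0.05. In glycolysis the 3 lower genes were Hk1, Hk2 and Hk3 (-0.33, -0.26 and -0.31), the hexokinases that phosphorylate glucose on entry, of which Hk3 is known from myeloid cells. That count was 4 with female replicate 2 omitted, 0 with female replicate 1 omitted and 1 with female replicate 3, male replicate 1 or male replicate 3 omitted, and it was 0 with coding length and GC content as offsets. Among 24 genes of iron handling and ferroptosis, 1 was higher and 2 were lower at an unadjusted p under 0.05. Both shares were below those of all autosomal genes (7.54% and 10.2%). Slc40a1, ferroportin, the iron exporter of macrophages, had 639, 579 and 612 CPM in females and 1041, 929 and 566 CPM in males, with male replicate 3 below every female.

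The receptors for oestrogen were read at low levels without a resolved sex difference. Esr1, which encodes oestrogen receptor alpha, had 14.4, 19.6 and 15.6 CPM in females and 19.2, 19.2 and 17.6 CPM in males (0.18, 95% interval -0.11 to 0.46). Gper1, the G-protein coupled receptor, had 136, 176 and 128 counts in females and 253, 154 and 209 counts in males (0.31, 95% interval -0.17 to 0.79). Esr2 had between 2 and 4 counts in each library and was not tested. Of 10 tested steroid receptors and coregulators, 0 were higher at an unadjusted p under 0.05. The 3 lower were Med1, Ncoa1 and Ncoa7 (30%, beside 10.2% of all autosomal genes). With male replicate 3 omitted 0 were lower and 1 was higher, and 1 was lower with female replicate 1 or female replicate 3 omitted or with coding length and GC content as offsets. The cytokines Tnf and Il6, examined by the study in other assays, stood near the counting limit, with 14, 16 and 23 counts of Tnf in females against 9, 7 and 12 in males and 13, 10 and 6 counts of Il6 in females against 22, 18 and 19 in males. Their log2 fold changes were -1.08 (SE 0.35) and 0.84 (SE 0.33).

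Neutrophil genes had the lowest medians of the 34 lists. Neutrophils load primary granules with enzymes such as myeloperoxidase early in their development and fill later granules with lactoferrin, NGP and cathelicidin as they mature, under transcription factors of the C/EBP family and PU.1. The later granule and maturation list had 24 of 27 members lower at an unadjusted p under 0.05 (88.9%, beside 10.2% of all autosomal genes). It had 0 higher and a median of -0.50. All male libraries lay below all female libraries for 22 of the 27 (beside 11.9%), and DESeq2 called 17 lower (beside 2.57%). The sum of the list was 9510, 8100 and 8606 CPM in females and 6910, 7145 and 7324 CPM in males, without overlap. Without single libraries the count lower at an unadjusted p under 0.05 ran from 19 to 24.

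The promoters of S100a9, S100a8 and Ngp are shown because these genes were among the 4 tested members of the later list with the most counts. Mmp9, the other of the 4, had a log2 fold change of 0.24 and no promoter entry. Each is the stretch of 150 bases from 250 to 101 bases before the gene's start, 5′ to 3′ on the strand of the gene, from RefSeq on GRCm38.p6, with matches to TTNNGCAA (C/EBP) or GAGGAAGT (PU.1) on either strand in capitals. S100a9 and S100a8 encode the subunits of calprotectin, which makes up much of the neutrophil cytosol, and Ngp encodes neutrophilic granule protein. S100a9 lies at chr3:90695822-90695971 (minus strand), S100a8 at chr3:90668821-90668970 (plus strand) and Ngp at chr9:110419558-110419707 (plus strand).
S100a9: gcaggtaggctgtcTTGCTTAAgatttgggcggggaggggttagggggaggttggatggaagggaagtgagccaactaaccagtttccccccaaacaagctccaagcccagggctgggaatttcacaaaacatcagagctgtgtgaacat
S100a8: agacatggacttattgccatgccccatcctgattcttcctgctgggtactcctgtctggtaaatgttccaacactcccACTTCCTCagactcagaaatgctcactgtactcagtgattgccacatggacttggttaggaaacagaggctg
Ngp: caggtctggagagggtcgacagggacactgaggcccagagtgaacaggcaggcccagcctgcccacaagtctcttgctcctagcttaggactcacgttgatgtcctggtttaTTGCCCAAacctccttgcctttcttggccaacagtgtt
The C/EBP match of S100a9 spanned positions -236 to -229 and that of Ngp -138 to -131, and the PU.1 match of S100a8 spanned -172 to -165. Of 32851 promoters in the same window, 6.22% held the C/EBP letters and 1.24% the PU.1 letters. Of the 23 later neutrophil genes with a promoter entry, 7 held the former and 2 the latter in any of their entries. The shares count promoters while these numbers count genes, so the 2 are not compared. A match is a description of the letters and was not tested for binding.

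S100a9 had 2293, 1830 and 1975 CPM in females and 1469, 1555 and 1436 CPM in males (-0.45, SE 0.10). S100a8 had 1546, 1224 and 1303 CPM in females and 989, 1089 and 1003 CPM in males (-0.40, SE 0.11). Ngp had 806, 616 and 889 CPM in females and 484, 555 and 500 CPM in males (-0.59, SE 0.14). In each of them every male library lay below every female library, and female replicate 2 was the nearest to the males. Ltf, lactoferrin, and Camp, cathelicidin, had log2 fold changes of -0.62 (SE 0.15) and -0.52 (SE 0.13). Mmp9, gelatinase B, had the opposite sign, with 1384, 1533 and 1205 CPM in females and 1534, 1416 and 1923 CPM in males (0.24, 95% interval -0.08 to 0.57), and osteoclasts are a known further source of it.

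The primary granule list, of 8 genes, had 7 members lower and 1 higher at an unadjusted p under 0.05, with a median of -0.54. These were 87.5% and 12.5%, beside 10.2% and 7.54% of all autosomal genes. Mpo, myeloperoxidase, had 290, 198 and 279 CPM in females and 149, 187 and 187 CPM in males (-0.55, SE 0.16). Elane, neutrophil elastase, had 78.4, 54.2 and 74.4 CPM in females and 39.5, 46.3 and 49.7 CPM in males (-0.61, SE 0.15). The member that was higher was Mgst1, a microsomal glutathione transferase that many cell types make (0.28, SE 0.077). The counts of lower and higher members were 7 and 1 under every omission of a single library.

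At 65 weeks the neutrophil genes had the opposite sign. The median of the later list was 0.72 with 27 of 27 members in the higher direction, and that of the primary granule list was 0.98 with 8 of 8. In the interaction of sex and age, fitted by edgeR on all 12 libraries, 24 of the 27 later genes were higher at 65 weeks at an unadjusted p under 0.05, beside 842 of 14581 autosomal genes (5.77%), and 0 were lower, beside 904 (6.2%). The 65-week male replicate 3 held 117 counts of Xist, and without that library the count of 24 was 25. Over the omission of each of the 12 libraries it ran from 21 to 25. S100a9 had an interaction of 1.18 and Csf3r of 1.23 on the log2 scale. No neutrophil gene passed the adjusted test of the interaction, in which 1 autosomal gene was called (0.00686%).

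**Figure D3:**
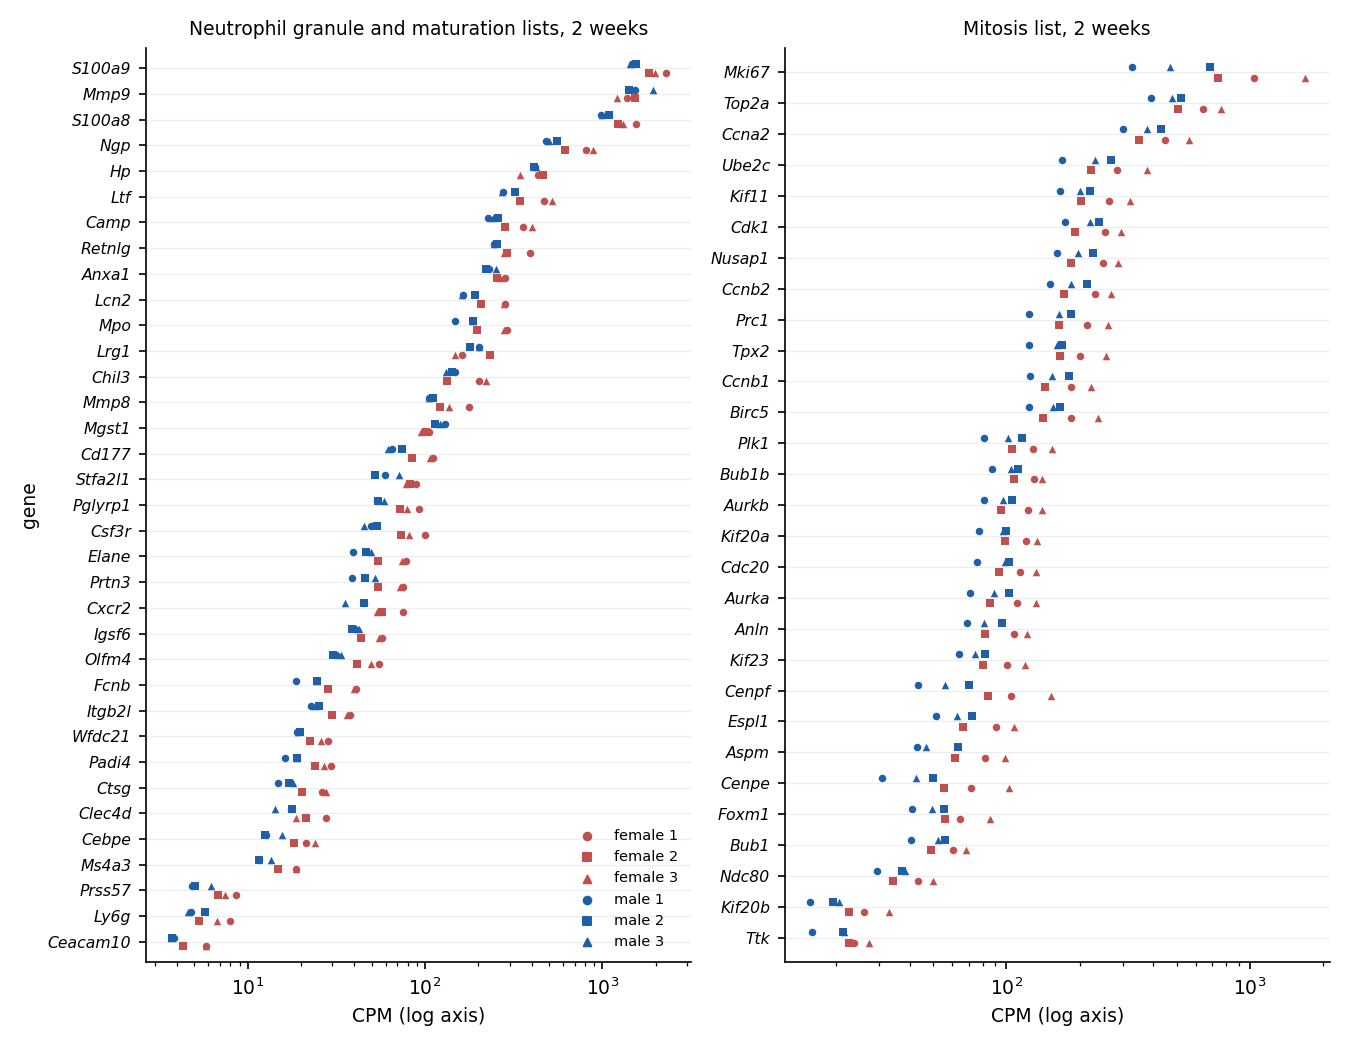
CPM on a log axis in each of the 6 libraries at 2 weeks, for the 35 neutrophil genes of both lists (left) and the 29 mitosis genes (right), with females in red, males in blue and a marker shape per replicate. The male points lie left of the female points for 29 of the 35 neutrophil genes, while in the mitosis list female replicate 2 lies among the males and female replicate 3 is highest.

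Lists of B and T cells also had medians below 0, with fewer members past an unadjusted p under 0.05. In the mature B cell list 8 of 11 were lower (72.7%, beside 10.2% of all autosomal genes), with a median of -0.39. The male libraries lay wholly below the female for 6 members, beside 11.9% of all autosomal genes. The sum of the list was between 861 and 951 CPM in females and between 681 and 763 CPM in males. With female replicate 3 or male replicate 1 omitted, 5 of the 11 were lower. Cd74, the invariant chain of MHC class II, had 351, 341 and 329 CPM in females and 272, 231 and 289 CPM in males (-0.37, SE 0.097). Ciita, the regulator of MHC class II genes, had a log2 fold change of -0.70 (SE 0.13), and Fcer2a, the B cell receptor CD23, of -0.67 (SE 0.12). In the early B cell list 5 of 15 were lower (33.3%, beside 10.2% of all autosomal genes), with a median of -0.24. Without single libraries that median ran from -0.39 to -0.11. The sums of the list overlapped, at 375, 366 and 422 CPM in females and 305, 380 and 319 CPM in males. Pax5, the B cell commitment factor, lay at the low end of the list (-0.89, SE 0.17). It had 8.48, 9.36 and 10.4 CPM in females and 4.15, 6.37 and 4.66 CPM in males. Cd79b, Cd79a and Ebf1, the members with the most counts, had log2 fold changes of -0.06, -0.44 and -0.08. In the list of T and NK cells 2 of 17 were lower, a share near the 10.2% of all autosomal genes, with a median of -0.33. With male replicate 3 omitted 6 were lower, with female replicate 2 omitted 4, and with female replicate 3 omitted 1.

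Erythroid genes were lower in males on balance, but the libraries overlapped. All 24 were in the lower direction with a median of -0.33. At an unadjusted p under 0.05, 4 were lower (16.7%, beside 10.2% of all autosomal genes). The count was 21 without female replicate 2 and 10 without male replicate 2, and 1 or 2 without any other single library. Their sum was 50989, 39776 and 69070 CPM in females and 34547, 51365 and 41304 CPM in males. Hbb-bs, an adult beta globin, had a log2 fold change of -0.27 (95% interval -0.78 to 0.24).

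Macrophage, megakaryocyte and eosinophil genes were split by male replicate 3. In the list of monocytes and macrophages 6 of 20 were higher at an unadjusted p under 0.05 (30%, beside 7.54% of all autosomal genes). At the same threshold 1 was lower (5%, beside 10.2%). In all, 15 were in the higher and 5 in the lower direction, with a median of 0.34. C1qa, a complement component of tissue macrophages, had 385, 354 and 347 CPM in females and 678, 606 and 350 CPM in males, so male replicate 3 was among the females. Lyz2, the member with the most counts, had 2477, 1748 and 2028 CPM in females and 1595, 1568 and 1892 CPM in males. Its log2 fold change was -0.31 (SE 0.14), against 0.61 and 0.43 for Axl and Mrc1, the next in counts. The gene lower at an unadjusted p under 0.05 was Ly6c2, a surface protein of inflammatory monocytes. It had 116, 78.9 and 115 CPM in females and 56.9, 62.9 and 74.6 CPM in males (-0.67, SE 0.16). Without male replicate 3 the list had 14 higher and 4 lower genes, and without male replicate 1 or male replicate 2 it had 0 higher. Without female replicate 1 it had 2 higher and without female replicate 3 it had 1. In the megakaryocyte list 13 of 14 were in the higher direction, with a median of 0.26, and 0 were higher at an unadjusted p under 0.05, or 12 without male replicate 3. Eosinophil, basophil and mast cell genes had a median of -0.40 with 3 of 11 lower, or 7 without male replicate 3 and 1 without female replicate 3 or male replicate 1. Their sum was between 1900 and 2123 CPM in females but 1305, 1391 and 2136 CPM in males.

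Skeletal lists differed little. In the osteoblast list 1 of 17 was higher at an unadjusted p under 0.05 (5.88%, beside 7.54% of all autosomal genes). It was Ibsp, bone sialoprotein (0.32), and the median of the list was -0.06. The osteoblast median was 0.07 with female replicate 2 omitted, when 5 were higher. In the chondrocyte list 4 of 19 were higher (21.1%, beside 7.54% of all autosomal genes) and 1 was lower, with a median of 0.13. That median turned to -0.04 with female replicate 3 omitted and to -0.02 with male replicate 3 omitted, and 2 were higher in each of these fits and with female replicate 2 or male replicate 1 omitted. Col10a1, the collagen of hypertrophic chondrocytes, had 208, 210 and 204 CPM in females and 273, 244 and 361 CPM in males, without overlap (0.50, SE 0.14). The osteoclast list and the list of stromal cells and adipocytes had medians of 0.14 and 0.14, with 0 of 11 and 0 of 13 past an unadjusted p under 0.05, or 2 and 5 higher with female replicate 2 omitted.

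**Figure D4:**
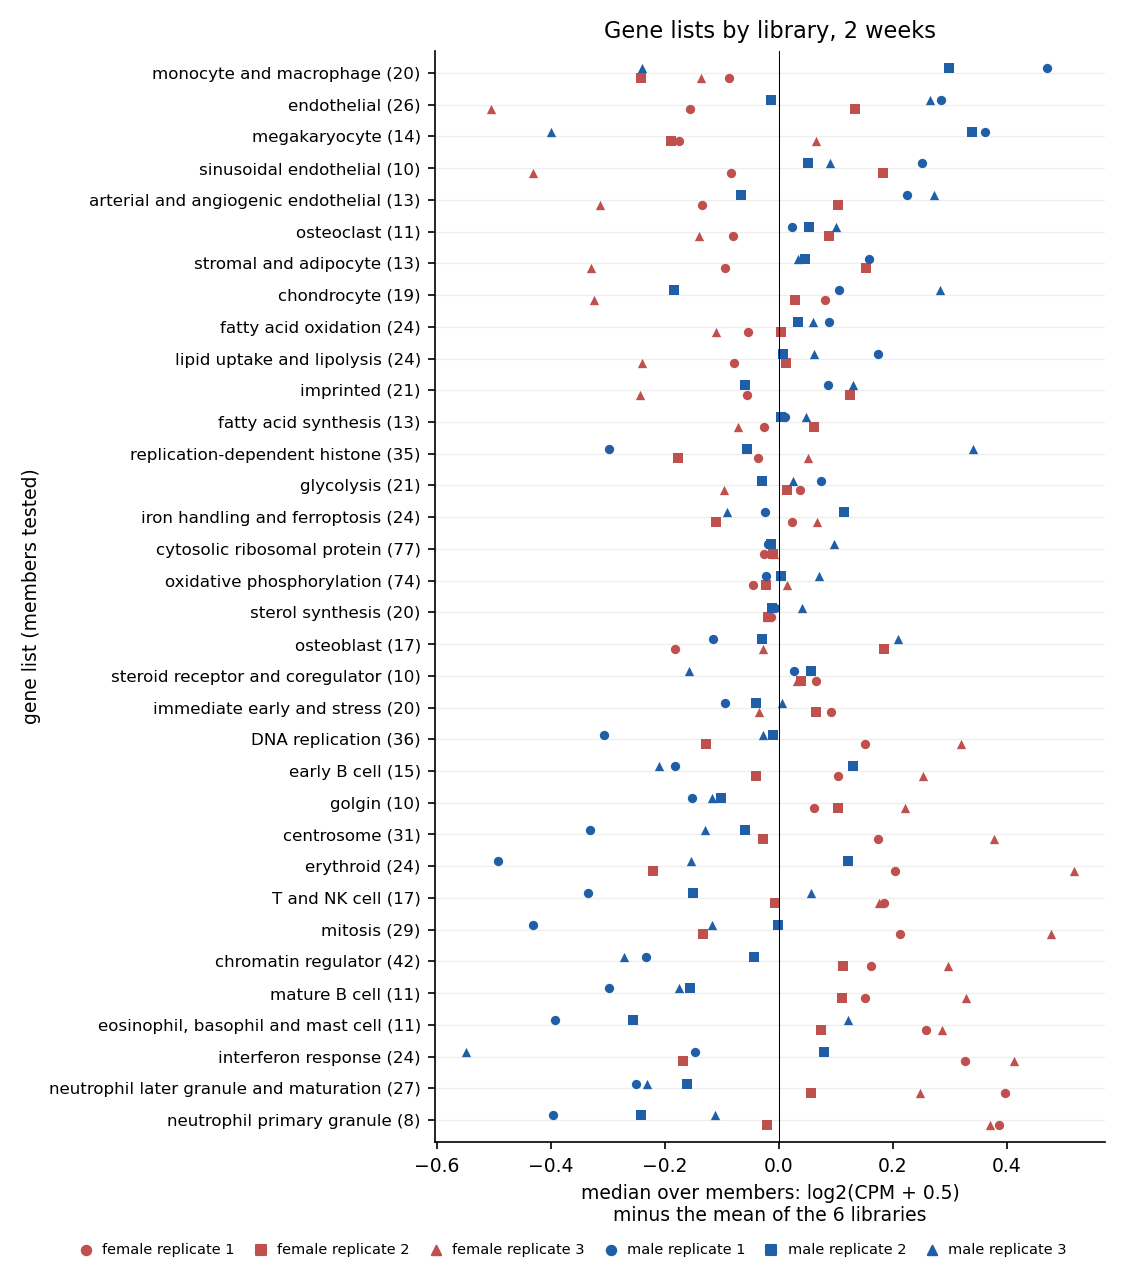
For each of the 34 gene lists (y axis, members tested in brackets) and each library, the median over members of log2(CPM + 0.5) minus the mean of the 6 libraries (x axis), with females in red and males in blue. Male points lie left of female points in both neutrophil lists and in the mature B cell, chromatin regulator, centrosome and golgin lists. Male replicate 3 departs from the other males in the macrophage, megakaryocyte and eosinophil lists.

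Mitosis genes were lower in males with a wide spread between libraries. All 29 mitosis genes were in the lower direction with a median of -0.37. At an unadjusted p under 0.05, 14 were lower (48.3%, beside 10.2% of all autosomal genes), and 6 did not overlap (beside 11.9%). Mki67, the proliferation marker Ki-67, had 1039, 737 and 1682 CPM in females and 327, 683 and 468 CPM in males (-1.23, SE 0.34). Cenpf, a kinetochore protein, had 105, 84.2 and 153 CPM in females and 43.4, 70.0 and 56.0 CPM in males (-1.01, SE 0.24). Mki67 and Cenpf were the only 2 members with a change of over 1 on the log2 scale. Both have long coding sequences (9531 and 8991 bases). The sum of the list was 5691, 4382 and 7336 CPM in females and 3251, 4759 and 4125 CPM in males, so male replicate 2 exceeded female replicate 2. Omitting female replicate 3 or male replicate 1 left 5 such genes, omitting female replicate 1 left 7, and omitting female replicate 2 gave 29. All 36 genes of DNA replication were in the lower direction with a median of -0.23 and 4 lower at an unadjusted p under 0.05, a share near the 10.2% of all autosomal genes. That count was 29 when female replicate 2 was omitted. The erythroid sum followed the same order of libraries as the mitosis sum within each sex. In females both were highest in replicate 3 and lowest in replicate 2. In males both were highest in replicate 2 and lowest in replicate 1. The part of red cell precursors in these values was not tested.

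Interferon response genes were lower in direction for 24 of 24 members with a median of -0.41. At an unadjusted p under 0.05, 9 were lower (37.5%, beside 10.2% of all autosomal genes). Zbp1, a sensor of nucleic acids induced by interferon, had 10.7, 6.56 and 14.8 CPM in females and 6.05, 5.71 and 4.20 CPM in males (95% interval of the log2 fold change -1.65 to -0.35). Male replicate 2 and female replicate 2 overlapped in the summed level of the list, which was 1318, 977 and 1492 CPM in females and 995, 1171 and 783 CPM in males. The count of 9 was 15 without female replicate 2, 12 without male replicate 2 and 2 or 3 without any other single library. Immediate early and stress genes, which rise during tissue handling, had a median of -0.12 with 1 of 20 higher and 3 lower. These were 5% and 15%, beside 7.54% and 10.2% of all autosomal genes. Imprinted genes, many of which control growth before weaning, had a median of 0.11 and 0 of 21 past an unadjusted p under 0.05 in either direction, or 6 higher with female replicate 2 omitted and 3 with male replicate 2 omitted. Of 35 replication-dependent histone genes, whose RNA lacks a poly(A) tail, 0 were higher and 2 lower.

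Chromatin regulators were the list with the largest number of members lower in males, though the later neutrophil list had a slightly larger share (88.9%). Of 42 genes, 37 were lower at an unadjusted p under 0.05 (88.1%, beside 10.2% of all autosomal genes) and 0 were higher. The male libraries lay wholly below the female for 35 (beside 11.9%), DESeq2 called 26 lower (beside 2.57%), and the median was -0.37. The sum was 3613, 3431 and 3921 CPM in females and 2766, 3112 and 2708 CPM in males. Chd4, the helicase of the NuRD complex, had 324, 310 and 336 CPM in females and 267, 281 and 258 CPM in males (-0.27, SE 0.075). Ncor1, a nuclear receptor corepressor, had 173, 162 and 192 CPM in females and 129, 141 and 123 CPM in males (-0.42, SE 0.092). Chd7, a chromatin remodeller, had 18.6, 16.7 and 19.7 CPM in females and 13.2, 12.3 and 12.4 CPM in males (-0.54, SE 0.091), and Tet2, a methylcytosine dioxygenase, had a log2 fold change of -0.58 (SE 0.10). Centrosome genes (18 of 31 lower, 17 without overlap, median -0.31) and golgins (7 of 10 lower, 6 without overlap, median -0.31) were lower as well. Over all autosomal genes the shares were 10.2% lower and 11.9% without overlap in that direction. Akap9, a scaffold of both the centrosome and the Golgi, had 18.1 ± 2.09 CPM (SD, n = 3) in females and 10.5 ± 1.79 CPM in males, without overlap (-0.78, SE 0.14). Golgb1, a giant golgin, had a log2 fold change of -0.67 (SE 0.14).

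Many genes of these 3 lists have a long coding sequence. The median coding length was 6516 bases for the chromatin regulators, 3420 for the centrosome list and 3882 for the golgins, against 1419 over all autosomal genes tested and 942 for the later neutrophil list. When protein-coding genes were divided into deciles by coding length, 446 of 1324 genes in the longest decile (3540 bases and more) were lower in males at an unadjusted p under 0.05 (33.7%) and 20 were higher (1.51%), with a median of -0.14. In the shortest decile (up to 579 bases) 68 were lower (5.14%) and 152 higher (11.5%). Of the 42 chromatin regulators 41 lay in the longest decile, as did 15 of 31 centrosome genes and 5 of 10 golgins, and 9 and 2 of the latter lists lay in the next longest. Outside it, 3 of 16 centrosome genes and 2 of 5 golgins were lower. Without the members of these 3 lists, 390 of the other 1263 genes of the longest decile were lower (30.9%).

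The shift was present in each library. The median deviation of the longest decile from the mean of the 6 libraries was 0.061, 0.080 and 0.055 on the log2 scale in females and -0.048, -0.024 and -0.12 in males. The sexes did not overlap, and male replicate 3 was lowest. By summed exon length, which includes untranslated parts, the gradient was smaller, with 236 of 1324 genes of the longest decile lower (17.8%) and 60 higher (4.53%). Without single libraries the number lower in the longest coding decile ran from 258 (male replicate 1 left out) to 479 (female replicate 2 left out), and it was 290 without female replicate 1. With the coding length and GC content of each gene as offsets, a setting chosen after the data were seen, 163 were lower and 107 higher there. These offsets were fitted to the same 6 libraries and remove a trend with length by construction, so a smaller count was fixed in advance. The same setting left 18 of 42 chromatin regulators, 10 of 31 centrosome genes, 5 of 10 golgins and 10 of 29 mitosis genes lower. With it 24 of 27 later neutrophil genes were lower and 12 of 26 endothelial genes higher. At 65 weeks 125 of 1242 genes of the longest coding decile were lower and 40 higher, beside 5.36% lower and 4.96% higher over all autosomal genes.

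**Figure D5:**
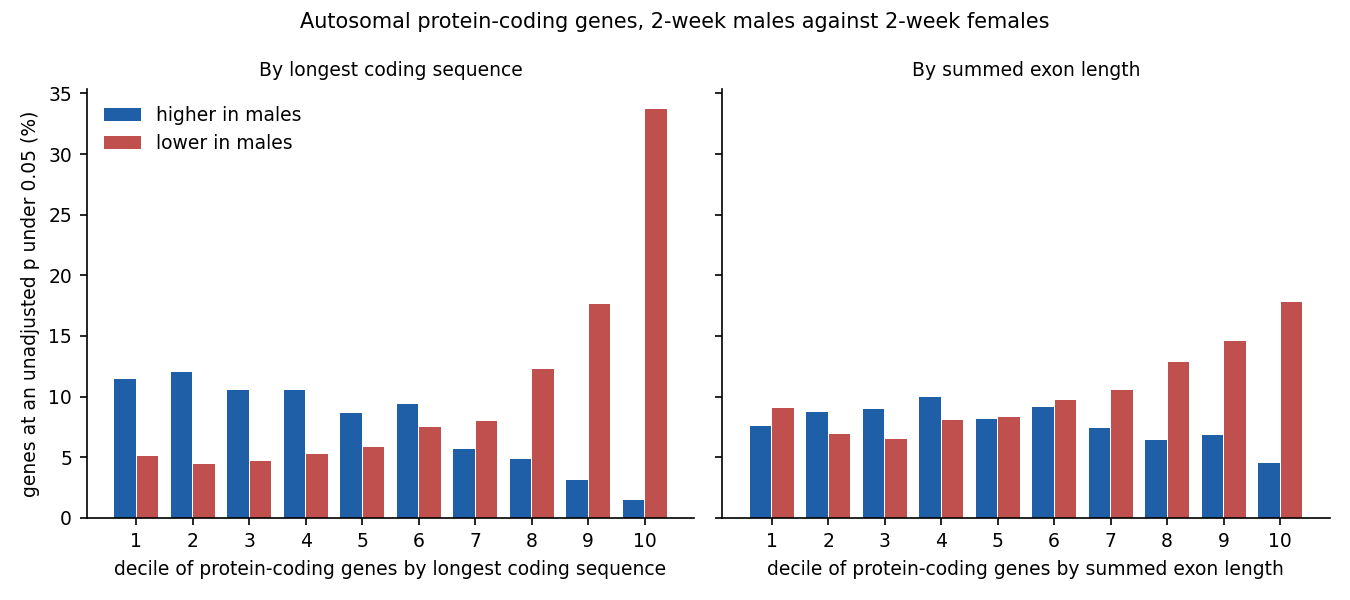
Share of autosomal protein-coding genes at an unadjusted edgeR p under 0.05 (y axis, percent), higher in 2-week males in blue and lower in red, by decile of longest coding sequence (left) and of summed exon length (right), from the shortest decile at 1 to the longest at 10. The lower share climbs to 33.7% in the longest coding decile and to 17.8% in the longest exon decile.

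The chromosomes differed modestly in the direction of their genes. Chromosome 17 had 108 of 697 genes lower at an unadjusted p under 0.05 (15.5%) and 35 higher (5.02%), and chromosome 3 had 82 of 710 higher (11.5%) and 48 lower (6.76%). By GC content of the exons, the decile with the lowest GC had 162 of 1324 genes higher and 109 lower, and the decile with the highest GC had 60 higher and 178 lower. Of 446 long noncoding RNAs, 14 were higher (3.14%) and 27 lower (6.05%). Immunoglobulin variable genes, which mark rearranged B cells, had 6 of 40 lower and 1 higher with a median of -0.32, and 179 processed pseudogenes, whose reads can come from their parent genes, had a median of 0.19.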

How the data were processed

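The authors deposited a table of raw read counts per Ensembl gene, made from paired reads of 100 nt and not normalised. The submitters' processing notes name TopHat2, HTSeq and mm9, whereas the methods of the study name STAR, featureCounts and GRCm39, and which of them made the counts was not resolved. Strand use and multimapping reads are not given in the sources used here, so genes with near-identical copies (globins, histones, pseudogenes) are uncertain. The kit was for total RNA while the label names polyA RNA. Depth sets the counting error only, and without molecular identifiers a read need not stand for a separate molecule.

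Names and lengths came from GENCODE M39 by Ensembl ID. Counts were tested in edgeR 4.0.16 (R 4.3.3) with filterByExpr (minimum count 10), TMM and the quasi-likelihood F test at a Benjamini-Hochberg adjusted threshold of 0.05, on the 6 libraries at 2 weeks and without covariates. SEs came from the F statistic. DESeq2 1.42.0, limma 3.58.1 (voom), other scalings and filters, thinning, offsets, omission of each library in turn and a replicate block were alternatives. No exact permutation p of 3 against 3 libraries can be below 0.1. Scripts were tested on simulated data. Replicates differed by far more than sampling noise (chi-square per degree of freedom between 26.6 and 78.6).

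The comparison and the gene lists were chosen with earlier results of these data known. Genes named were the 10 smallest p values and the 5 largest folds without overlap in each direction (protein-coding, mean log2 CPM 3 or above), genes the study examined in other assays, and the 3 members with the most counts of the lists described gene by gene. Tables of the 34 lists hold all members, and 7 listed genes had no match. Further members named were chosen after their values were seen.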

Additional observations from a re-analysis of the deposited data

Results flagged for a closer look

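The sex difference of Prg4, which encodes lubricin, a lubricating proteoglycan of joint cartilage and synovium, was the only autosomal one that differed between ages by the interaction test in edgeR. At 2 weeks Prg4 had 1.43, 2.35 and 1.02 CPM in females and 1.40, 1.45 and 2.46 CPM in males, and the groups overlapped (log2 fold change 0.14, SE 0.35). The interaction of sex and age was 4.26 on the log2 scale (SE 0.51, adjusted p 0.0352). At 65 weeks the log2 fold change was 4.42 (SE 0.29). With 1 library omitted at a time, the interaction was called in 4 of 12 fits, with values from 3.85 to 4.57, and those 4 left out 2-week female replicate 3, 2-week male replicate 3, 65-week male replicate 2 or 65-week male replicate 3.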

How the results depend on the processing

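The count of 0 autosomal genes at an adjusted p of 0.05 was 415 with DESeq2 (79 higher, 336 lower), 1 with all 12 libraries in 1 model (Kif21b), and 0 under the other scalings, filters, offsets and limma-voom, while 1059 genes were higher and 1437 lower in edgeR at an unadjusted p under 0.05. Without single libraries it ran from 0 to 5: it was 5 without female replicate 2 (Nin, Cldn10, Akna, Kif21b and Cd300lf) and 3 without male replicate 3 (Slc1a3, Alox15 and Ccr3). The numbers at an unadjusted p under 0.05 ran from 324 to 2225 higher and from 730 to 2350 lower without single libraries, the lowest without male replicate 1 and the highest without female replicate 2, and were 676 and 764 with all 12 libraries in 1 model. The correlations of same-numbered deviations were -0.045, -0.55 and -0.049, and those of other numbers ran from -0.46 to 0.52. Deviations from the mean of 3 libraries depend on one another, so they cannot settle whether the replicate numbers pair the samples. With the replicate block 0 genes were called, 648 were higher and 1012 lower, or 694 and 860 with length and GC offsets as well. The count of 1 gene in the interaction of sex and age was 366 with DESeq2, 6 with no filter on low counts and 0 with the replicate block, and ran from 0 to 708 without single libraries, where 708 was without 65-week male replicate 3, which held 117 counts of Xist. Of the genes named, Cpt1a (-0.022 to 0.069) and Prg4 (-0.18 to 0.52) changed sign when single libraries were left out. The cause of these changes was not tested. Depth limits Tnf, Il6 and Esr2, with few counts a library.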
